A study of Homo sapiens with 4 samples.

Results

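The genes described here are 10 genes of the NF-kB pathway, chosen by name among the 61541 genes counted: NFKBIA, NFKB1, NFKB2, RELA, RELB, REL, TNFAIP3, BIRC3, TRAF1 and CXCL8. Each matched a single row of the count files, and all 10 passed the filter on low counts. They were measured in H1299, a human lung carcinoma cell line, which was given either ginseng nanoparticles or, as the control, phosphate-buffered saline (PBS), with 2 libraries of polyadenylated RNA per group. All 4 libraries came from the same line grown in serum-containing medium, and the labels name no other treatment, dose, exposure time or plant part. The titles of the nanoparticle libraries also call them controls, which goes against their treatment label, and the treatment label was followed. No label says that replicates were separate cultures, so the p-values rest on the spread within these pairs of libraries, and that spread may be technical.

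NF-kB is a family of transcription factors that act as pairs of subunits. RELA, RELB and REL encode the subunits with an activation domain, while NFKB1 and NFKB2 encode precursors that are cut to DNA-binding partners and that, uncut, hold other subunits in the cytoplasm. Inhibitors of the IkB family, of which NFKBIA encodes the best known, keep the pairs inactive until IkB kinase marks them for destruction. Active NF-kB turns on the genes of its own inhibitors, among them NFKBIA and TNFAIP3, so the pathway limits itself. In lung carcinoma cells it is known for raising survival genes such as BIRC3 and chemokines such as CXCL8.

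Promoter sequences are shown because 6 of the 9 members in the RefSeq promoter table (GRCh38.p14, all but RELB) hold a match to the letters that NF-kB binds. Binding in these cells was not measured. A form of this element, GGANTTTCC, was searched on both strands from 250 bases before to 50 bases after each listed start. It was found for those 6 members and in 1.64% of all 35116 promoters, or for 2.01% of the 27305 genes they belong to. A longer form, the same letters with 1 more G before them, was found for 5 of them, NFKBIA, NFKB1, NFKB2, TNFAIP3 and REL, and in 0.558% of all promoters, or for 0.678% of genes. Every match of the longer form is also one of the shorter. The members are known NF-kB genes, so these matches are a description and no test. Capitals mark 1 match per gene, also where it lies on the opposite strand and reads as its reverse complement.
The 110 bases before the start of NFKBIA (chr14:35404750-35404859, minus strand) and before the start of NFKB2 at position 102395705 (chr10:102395595-102395704, plus strand), the 2 genes that changed, read as follows.
NFKBIA: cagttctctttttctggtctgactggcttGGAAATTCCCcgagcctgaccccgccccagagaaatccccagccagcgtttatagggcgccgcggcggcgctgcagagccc
NFKB2: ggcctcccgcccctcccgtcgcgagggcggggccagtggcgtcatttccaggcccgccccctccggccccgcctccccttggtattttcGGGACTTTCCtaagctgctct
The 30 bases around the match, all on the plus strand, are given for 4 members that did not pass the test: NFKB1 (chr4:102501300-102501329), TNFAIP3 (chr6:137867182-137867211), REL (chr2:60881518-60881547) and CXCL8 (chr4:73740468-73740497).
NFKB1: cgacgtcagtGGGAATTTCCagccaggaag
TNFAIP3: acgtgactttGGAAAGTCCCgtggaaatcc
REL: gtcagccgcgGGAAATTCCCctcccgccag
CXCL8: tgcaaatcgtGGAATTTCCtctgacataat
The printed matches of NFKBIA, NFKB1 and REL share the letters gggaatttcc, read on the strand where the element matches, and those of NFKB2 and TNFAIP3 share gggactttcc. NFKBIA holds a further match of the shorter form, ggactttcc, farther from the start at -242 to -234, which is not printed. No match was found in the windows of BIRC3, TRAF1 and RELA, which says only that these letters are not there.

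The libraries held between 22252686 and 24979081 counts on genes, and between 13.7% and 14.8% of reads were assigned to no gene. KRT8, KRT18 and VIM, the keratins and vimentin of this line, lay between 586.9 and 2390 CPM, which are counts scaled to a common effective library size. With nanoparticles all 3 were lower (log2 -0.11, -0.15 and -0.092, edgeR adjusted p = 0.024, 0.000526 and 0.0137). Of 13 markers of leukocytes, endothelium and fibroblasts, 12 stayed under 1 CPM in every library and PTPRC was at 0 in all of them. The summed level of the 13 was 9.08 and 9.53 CPM with PBS and 8.28 and 9.69 CPM with nanoparticles, most of it from ITGAM. By edgeR's quasi-likelihood test, at an adjusted p under 0.05, 407 of 15778 genes differed, 2.58% of those tested, of which 276 were higher and 131 lower with nanoparticles. With upper-quartile scaling the split was 223 higher and 190 lower.

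Per unit of transcript length the members spanned a wide range of levels in the PBS libraries, here given as TPM, counts divided by the length of each gene's principal transcript and scaled to the same sum in every library. NFKB2 stood at the top with 267.4 ± 6.92 TPM (SD, n = 2). BIRC3, an inhibitor of apoptosis that is also a ubiquitin ligase of the pathway, followed with 188.0 ± 2.0 TPM and RELB with 183.7 ± 2.58 TPM. NFKBIA had 112.8 ± 1.52 TPM and RELA 100.4 ± 6.48 TPM. NFKB1 had 65.1 ± 0.203 TPM and TRAF1, a signalling adaptor induced by NF-kB, 54.8 ± 1.22 TPM. The remaining genes were far lower: TNFAIP3, which encodes a ubiquitin-editing enzyme that dampens the pathway, had 10.4 ± 0.0897 TPM, the neutrophil-attracting chemokine gene CXCL8 1.717 ± 0.032 TPM and REL 0.4445 ± 0.0102 TPM. Adjacent genes in this order did not overlap between the PBS libraries, but BIRC3 and RELB differed by a factor of 1.02 and NFKBIA and RELA by 1.12, and TPM depends on the transcript chosen for its length. In the nanoparticle libraries the order was the same except that NFKBIA (91.73 and 101.6 TPM) overlapped RELA (98.1 and 97.74 TPM).

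**Figure D1:**
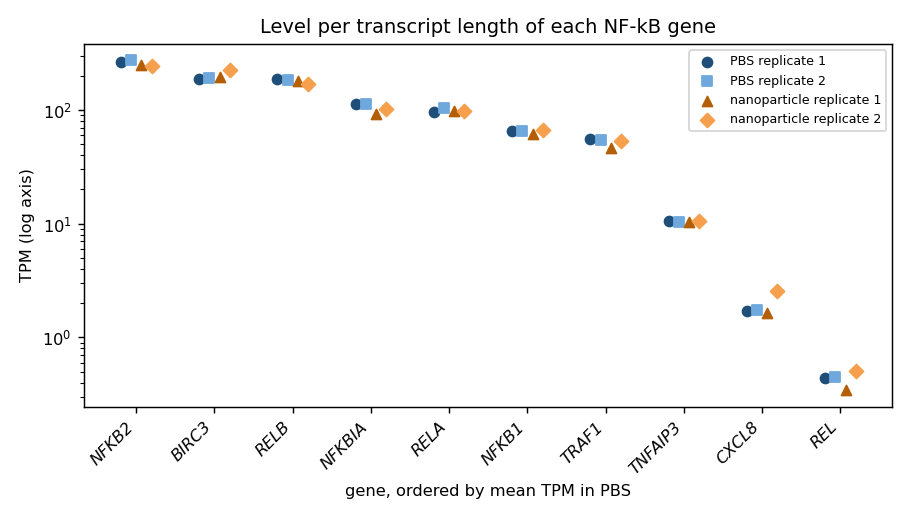
TPM on a log axis (vertical) for each gene (horizontal, ordered by mean TPM in PBS), 1 point per library. The genes fall from about 267.4 TPM for NFKB2 to 0.4445 TPM for REL in PBS, and the 4 libraries lie close together for each gene except CXCL8 and REL.

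With nanoparticles 2 of the 10 genes changed, both lower, NFKBIA and NFKB2, and none passed in the upward direction. Over all tested genes 0.83% passed lower and 1.75% passed higher. At an unadjusted p under 0.05 in edgeR 5 members were counted, NFKBIA, NFKB2, RELB and TRAF1 lower and BIRC3 higher, beside 16.8% of all tested genes (7.61% lower and 9.18% higher). The fold change was below 0 on the log2 scale for 8 of the 10 members, with a median of -0.080, against 49.8% of all tested genes and a median of 0.00056. The groups did not overlap in CPM for 6 members, 5 lower and 1 higher with nanoparticles, whereas this was so for 46.9% of all tested genes (23.2% lower and 23.7% higher). Of the 5, TNFAIP3 was apart only by 20.66 against 20.72 CPM, and its groups overlapped in TPM. The members were chosen with results of these libraries known, so these counts carry no test of the set.

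**Figure D2:**
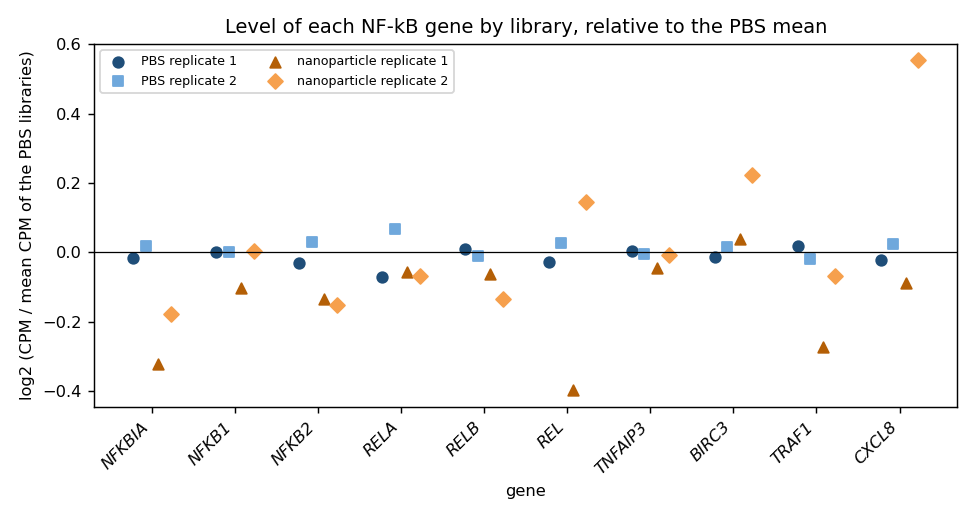
For each gene (horizontal), the log2 ratio of the CPM of each of the 4 libraries to the mean CPM of the PBS libraries (vertical). Both nanoparticle libraries lie below both PBS libraries for NFKBIA, NFKB2, RELB, TRAF1 and, narrowly, TNFAIP3, and above them for BIRC3.

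NFKBIA, the inhibitor gene, lies on chromosome 14 from 35401511 to 35404749 (GRCh38, GENCODE 29, minus strand). It was measured at 73.1 and 74.9 CPM in PBS replicates 1 and 2 and at 59.2 and 65.4 CPM in nanoparticle replicates 1 and 2. Both nanoparticle libraries were below both PBS libraries, and the lower of them was replicate 1. The mean fell from 74.0 ± 1.28 to 62.3 ± 4.37 CPM (SD, n = 2 per group). In the fitted values it fell by 15.9% (log2 fold change -0.25, standard error 0.048, 95% interval -0.35 to -0.15, edgeR adjusted p = 0.00689). When nanoparticle replicate 1 was left out, the log2 fold change was -0.18 and did not pass (edgeR adjusted p = 0.114), while without nanoparticle replicate 2 it was -0.32 and passed (0.0112). Neither this gene nor any other passed without PBS replicate 1 (0.502 for NFKBIA), without PBS replicate 2 (0.474), or with no filter on low counts (0.546).

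NFKB2, whose precursor gives the DNA-binding partner of RELB in the slower, noncanonical branch of the pathway, lies on chromosome 10 from 102394110 to 102402529. It had 342.0 and 356.7 CPM in PBS replicates 1 and 2 and 318.1 and 314.5 CPM in nanoparticle replicates 1 and 2. The groups did not overlap, and here the 2 nanoparticle libraries were nearly equal. The mean fell from 349.4 ± 10.4 to 316.3 ± 2.56 CPM (SD, n = 2 per group). In the fitted values it fell by 9.47% (log2 fold change -0.14, standard error 0.030, 95% interval -0.21 to -0.080, edgeR adjusted p = 0.0139). With any 1 library left out the log2 fold change stayed between -0.18 and -0.11 without passing: the adjusted p was 0.502 without PBS replicate 1, 0.47 without PBS replicate 2, 0.0813 without nanoparticle replicate 1 and 0.225 without nanoparticle replicate 2. It did not pass with no filter on low counts either (0.544).

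The other subunit genes did not pass. RELB had 178.8 and 176.2 CPM with PBS and 169.8 and 161.8 CPM with nanoparticles, so the groups were apart, with a log2 fold change of -0.099 (95% interval -0.17 to -0.026; edgeR adjusted p = 0.144). With length and GC trends removed it was -0.040. RELA, which encodes the main activating subunit, had 108.7 and 119.7 CPM with PBS and 109.7 and 109.0 CPM with nanoparticles. Its nanoparticle values lay between the PBS values (log2 fold change -0.062, 95% interval -0.15 to 0.025, edgeR adjusted p = 0.496). NFKB1 had 112.0 and 112.1 CPM with PBS and 104.3 and 112.3 CPM with nanoparticles, which overlapped (log2 fold change -0.049, 95% interval -0.13 to 0.033, edgeR adjusted p = 0.585). For RELA and NFKB1 the intervals do not reach the log2 fold change measured for NFKBIA, -0.25. The interval of NFKBIA itself, -0.35 to -0.15, ends where that of RELA begins. A difference between these genes was not tested. REL had 46 and 48 counts with PBS and 40 and 58 with nanoparticles, and the 95% interval of its log2 fold change ran from -0.55 to 0.35. At this depth the interval holds both a fall and a rise, and its bounds are not a limit of detection.

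Among the feedback and survival genes TRAF1 and BIRC3 went in opposite directions, each with its groups apart and neither past the threshold. TRAF1 (chromosome 9, from 120902393 to 120929173, minus strand) had 148.0 and 144.2 CPM with PBS and 120.8 and 139.4 CPM with nanoparticles, for which the fit gave a log2 fold change of -0.17 (standard error 0.047, 95% interval -0.27 to -0.069, edgeR adjusted p = 0.0664). The low value was that of nanoparticle replicate 1. Without it the log2 fold change was -0.068 (edgeR adjusted p = 0.512), and without nanoparticle replicate 2 it was -0.27 and passed (0.0112). TRAF1 also passed with total-count scaling (edgeR adjusted p = 0.0476), with upper-quartile scaling (0.0467), and with the length trend removed (log2 -0.22, 0.0139). Genes with transcripts of like length had a median log2 fold change of 0.050. TRAF1 did not pass with RLE scaling (edgeR adjusted p = 0.071), by limma-voom (limma-voom adjusted p = 0.0633) or by DESeq2 (DESeq2 adjusted p = 0.587).

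BIRC3 (chromosome 11, from 102317450 to 102339403) had 407.4 and 415.8 CPM with PBS and 422.2 and 480.5 CPM with nanoparticles. Both nanoparticle libraries were above both PBS libraries, replicate 1 by little and replicate 2 by more. Its log2 fold change was 0.13 (standard error 0.040, 95% interval 0.049 to 0.22, edgeR adjusted p = 0.0857). Without nanoparticle replicate 1 it was 0.22 and passed (edgeR adjusted p = 0.00535), and without nanoparticle replicate 2 it was 0.038 (0.779). With length and GC trends removed it was 0.047 (edgeR adjusted p = 0.602), and with total-count scaling it passed (log2 0.14, 0.0454). BIRC3 did not pass by DESeq2 (DESeq2 adjusted p = 0.678). BIRC2, a closely related inhibitor of apoptosis, had 183.9 and 188.1 CPM with PBS and 180.5 and 198.2 CPM with nanoparticles, with overlapping groups (log2 0.025, edgeR adjusted p = 0.805).

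TNFAIP3 had 20.9 and 20.7 CPM with PBS and 20.2 and 20.7 CPM with nanoparticles. The groups were apart by less than these digits show, and the log2 fold change was -0.026 (95% interval -0.17 to 0.12; edgeR adjusted p = 0.898). CXCL8 had few reads, 27 and 28 counts with PBS and 29 and 45 with nanoparticles. The exact Poisson 95% intervals, which cover counting error only, were 17.8 to 39.3 and 18.6 to 40.5 counts with PBS and 19.4 to 41.6 and 32.8 to 60.2 with nanoparticles, so all 4 overlapped. Its log2 fold change of 0.27 (95% interval -0.28 to 0.81; edgeR adjusted p = 0.673) became -0.087 without nanoparticle replicate 2. Exons of RELA overlap those of RELA-DT and exons of TNFAIP3 those of WAKMAR2 on the opposite strand, and the sources used here do not say whether counting used the strand. The partners had at most 80 and 23 counts. An exon of REL overlaps ENSG00000267520 on the same strand, which had 0 counts in every library.

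**Figure D3:**
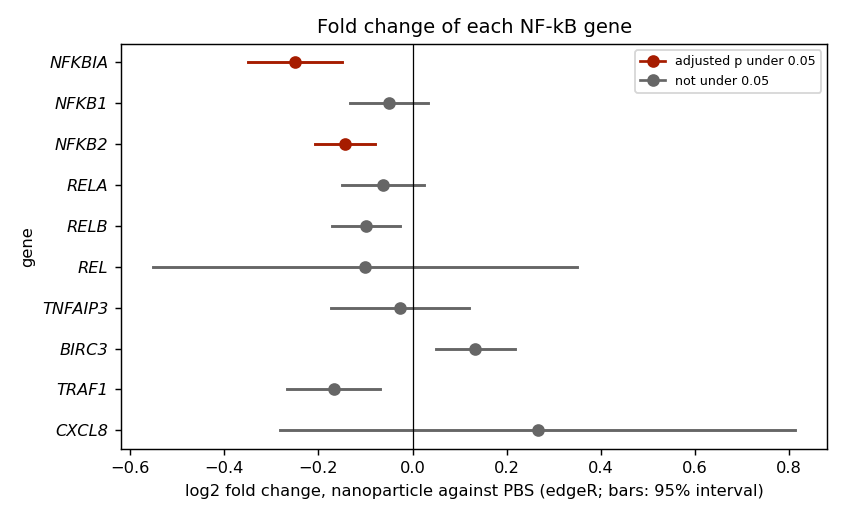
log2 fold change of nanoparticle against PBS (horizontal) for each gene (vertical), with 95% intervals from the edgeR fit as bars and genes past an adjusted p of 0.05 in red. NFKBIA at -0.25 and NFKB2 at -0.14 passed, and the widest intervals are those of REL and CXCL8, the genes with the fewest counts.

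The replicates of the nanoparticle group lay farther apart than those of the PBS group for 8 of the 10 members, all but NFKB2 and RELA. Among the 11107 tested genes above 5 CPM this was so for 48.9%. REL and CXCL8 are among the 8 members but lay below 5 CPM, with gaps of 0.54 and 0.64 between the nanoparticle replicates. The gap was 0.21 against 0.038 on the log2 scale for TRAF1, 0.19 against 0.029 for BIRC3, 0.14 against 0.035 for NFKBIA and 0.11 against 0.001 for NFKB1. In 7 members, REL and CXCL8 included, nanoparticle replicate 2 was the higher of the pair, against 51% of the tested genes above 5 CPM. NFKBIA and TRAF1 were thus closer to PBS, and BIRC3 farther from it, in nanoparticle replicate 2 than in replicate 1.

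**Figure D4:**
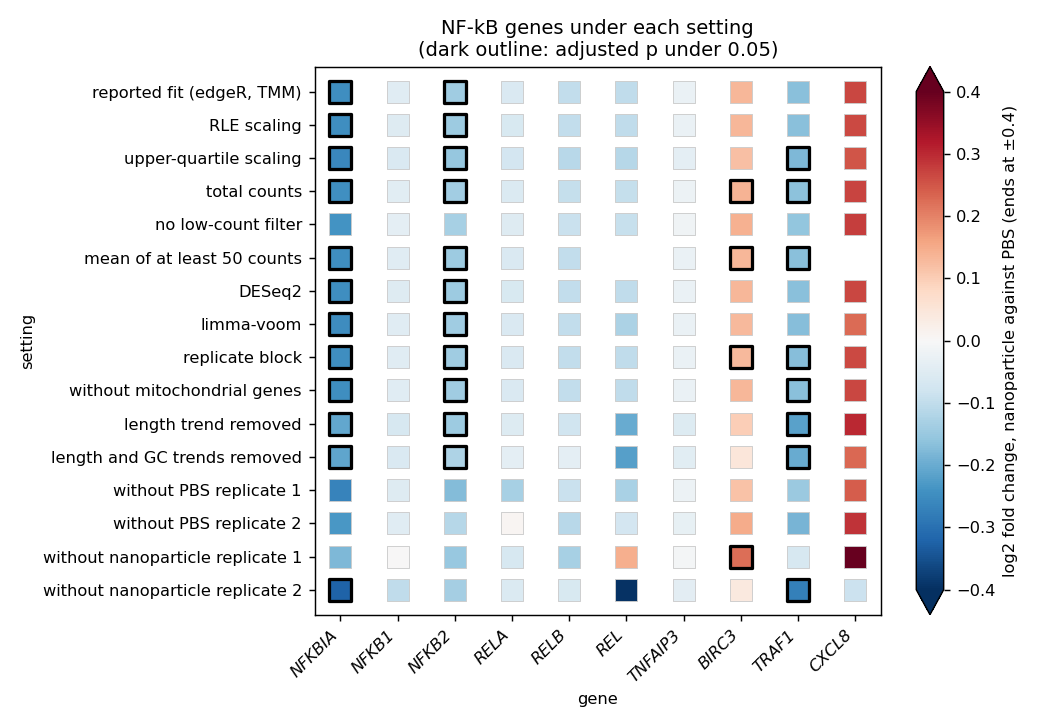
log2 fold change (colour, ends at ±0.4) of each gene (horizontal) in the reported fit and under each alternative setting (vertical), with a dark outline where the adjusted p was under 0.05 and no square where the gene was filtered out. NFKBIA and NFKB2 are lower under every setting shown, as are TRAF1, RELB and TNFAIP3, which did not pass in the reported fit. BIRC3 is higher under every setting shown, and the outlines change with the library left out.

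Fold changes in these libraries went with transcript length: the median log2 fold change was -0.063 in the shortest of 10 equal bins of genes above 5 CPM and 0.082 in the longest. The bin that holds NFKBIA had a median of -0.039 and that of NFKB2 -0.0044. After the trend with length was removed from each library, NFKBIA had a log2 fold change of -0.21 (edgeR adjusted p = 0.0332) and NFKB2 one of -0.14 (0.0172), so both still passed. Across the 10 members the rank correlation of fold change with length was 0.01, as a description, since all are read from the same 4 libraries.

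Of 70 other genes of the pathway, listed by role, 56 could be tested and 3 passed, 1 higher (IL1R1) and 2 lower (LIF and PLAU), beside 1.75% of all tested genes higher and 0.83% lower. With the length trend removed, or length and GC trends, 3 passed and all were lower: LIF, PLAU and CFLAR. CFLAR, an inhibitor of caspase activation, passed there in place of IL1R1. In the reported fit its groups overlapped, with 92.33 and 91.01 CPM with PBS and 86.94 and 91.73 CPM with nanoparticles (log2 -0.037, edgeR adjusted p = 0.704). Its transcript of 14672 bases lies in the longest of the 10 length bins, where the median log2 fold change was 0.082. The median of the 56 log2 fold change was 0.020. None of the 5 other IkB family genes passed (median log2 -0.066; 0 at an unadjusted p under 0.05 in edgeR, beside the 16.8% of all genes). The 4 with the smallest p were NFKBIE (log2 -0.066), BCL3 (-0.10), NFKBIZ (-0.15) and NFKBID (0.078), each with an edgeR adjusted p of at least 0.477.

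None of 9 genes of the upstream kinases and their partners passed either (median log2 0.082), with 6 of them above 0 and 3 at an unadjusted p under 0.05 in edgeR, beside the same 16.8%. RIPK1, the scaffold kinase of the TNF receptor, had a log2 fold change of 0.099 (edgeR adjusted p = 0.175), MAP3K14, the kinase that starts the noncanonical branch, one of 0.086 (0.177), and TAB3 and TAB2, adaptors of the kinase TAK, 0.11 and 0.066. CHUK, IKBKB and IKBKG, the subunits of IkB kinase, had values of 0.082, -0.078 and 0.082, the last uncertain because a near-identical copy of IKBKG can share its reads. Among 14 adaptors and ubiquitin ligases none passed (median log2 0.031; 1 at an unadjusted p under 0.05). FBXW11, part of a ligase that recognises marked IkB proteins, was at 0.12 (edgeR adjusted p = 0.124), TRAF3 at 0.048, IRAK4 at -0.067 and TRAF2 at 0.037. Of 6 negative regulators none passed (median log2 0.027; 1 at an unadjusted p under 0.05). TNIP2, a partner of the TNFAIP3 product, was at -0.11 (edgeR adjusted p = 0.132), CYLD, a deubiquitinase, at 0.11, OTULIN at 0.081 and TNIP1 at -0.044.

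Of 10 receptor genes 8 were tested, 2 of them at an unadjusted p under 0.05 in edgeR, beside 16.8% of all tested genes. IL1R1, the signalling receptor of interleukin 1, rose. It had 11.96 and 12.44 CPM with PBS and 15.2 and 15.4 CPM with nanoparticles, so the groups were apart. Its log2 fold change was 0.33 (standard error 0.085, 95% interval 0.15 to 0.51, edgeR adjusted p = 0.0416). The call was lost when the length trend was removed (log2 0.29, edgeR adjusted p = 0.0913), with length and GC trends removed (0.0841), with upper-quartile scaling (0.0503), with no filter on low counts (0.544), or without any 1 library (0.503 and 0.47 without PBS replicates 1 and 2, 0.108 and 0.239 without nanoparticle replicates 1 and 2). DESeq2 gave it no adjusted p, and it passed in 6 of the 14 alternatives that gave one. Its co-receptor IL1RAP had 15.5 and 15.8 CPM with PBS and 18.2 and 17.8 CPM with nanoparticles (log2 0.20, edgeR adjusted p = 0.192). TNFRSF12A (log2 -0.055) and TNFRSF1A (-0.014), the main TNF receptor, did not pass. The ligand genes TNF, IL1A, IL1B, LTA, LTB and TNFSF12 had at most 9 counts in any library, too few to be tested.

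Of 20 other target genes 14 were tested, 4 of them at an unadjusted p under 0.05 in edgeR, beside 16.8% of all tested genes. LIF and PLAU were lower (list median log2 -0.034). LIF, a cytokine of the interleukin-6 family, had 50.8 and 53.0 CPM with PBS and 38.9 and 44.8 CPM with nanoparticles (log2 -0.31, edgeR adjusted p = 0.00624). Without nanoparticle replicate 1 it was -0.21 (0.108). PLAU, which encodes urokinase, had 749.3 and 761.5 CPM with PBS and 679.5 and 677.5 CPM with nanoparticles (log2 -0.15, edgeR adjusted p = 0.00091), and it did not pass without nanoparticle replicate 2 (log2 -0.15, 0.0564). Neither passed without PBS replicate 1 (0.502 for each) or PBS replicate 2 (0.474 for LIF and 0.47 for PLAU), nor with no filter on low counts (0.551 for LIF and 0.544 for PLAU). The adhesion receptor gene ICAM1 (log2 -0.11, edgeR adjusted p = 0.1) and the chemokine gene CXCL1 (log2 0.23, 0.234) did not pass. IL6, CCL20, CXCL10, CCL5, CSF2 and VCAM1 had at most 11 counts in any library.

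**Figure D5:**
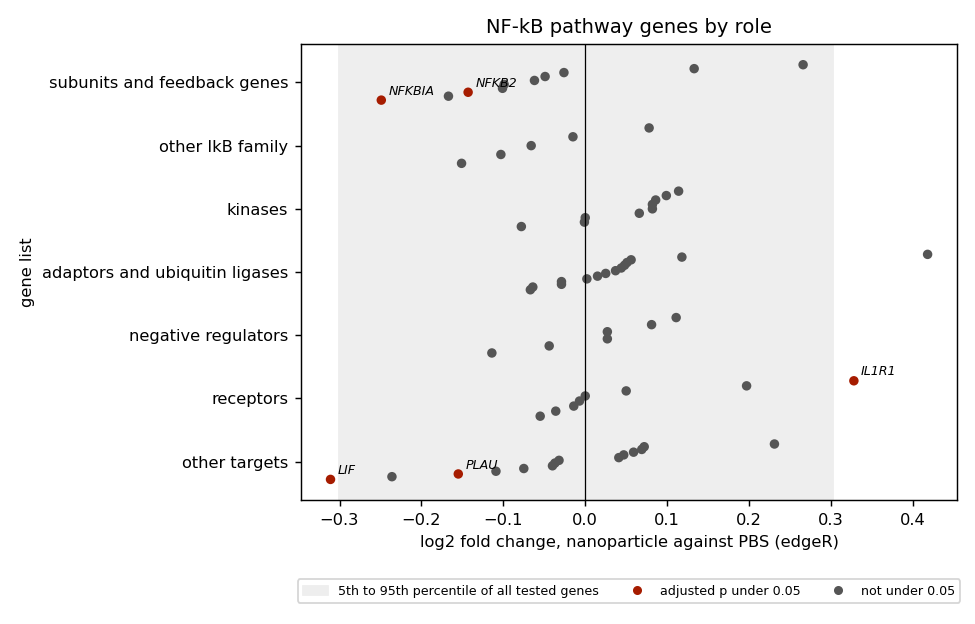
log2 fold change of each tested gene (horizontal) by role (vertical), 1 point per gene, red where the adjusted p was under 0.05; the grey band spans the 5th to 95th percentile of all 15778 tested genes (-0.30 to 0.30). Only NFKBIA, NFKB2, IL1R1, LIF and PLAU are red among the genes shown, and most points lie inside the band.

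The genes whose pattern over the 4 libraries was most like that of NFKBIA were sought among 10983 genes, by the root mean square distance between log2 CPM profiles centred on each gene's own mean. Those reported here are SLC27A1 (distance 0.0097), PMS2P5 (0.012), CCDC15 (0.017) and BHLHE41 (0.019). Their log2 fold changes lay between -0.27 and -0.23, and none of these passed the test (lowest edgeR adjusted p = 0.157, for BHLHE41). The likeness is a description over 4 libraries of the same cell line, and the genes were picked as the nearest of all those compared. They lay between 5.68 CPM (PMS2P5, nanoparticle replicate 1) and 16.2 CPM (BHLHE41, PBS replicate 2). Counting error at these levels was not set against the distances.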

How the data were processed

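Polyadenylated RNA of 4 libraries was counted by the authors. The deposited values are raw read counts, 1 file per library. The submitters' processing notes name GRCh38 and the tools HTSeq 2.0.2, STAR 2.7.6a, Picard, cutadapt 3.5 and bcl2fastq 2.20. The sources used here do not name the annotation release. Groups follow the treatment label.

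Gene names were matched by Ensembl ID (61369 of 61541 rows), loci and lengths from GENCODE 29, promoters from RefSeq (GRCh38.p14). Rows for reads given to no gene were left out. Genes were filtered with filterByExpr, scaled by TMM and tested, nanoparticle against PBS, with edgeR 4.0.16 (quasi-likelihood, two-sided, R 4.3.3), with Benjamini-Hochberg adjustment over all tested genes and a threshold of 0.05. Standard errors came from the coefficient and its F statistic. The chi-square per degree of freedom between replicates was 1.78 for PBS and 1.95 for nanoparticles, so no library was a copy of another. An exact permutation test of 2 against 2 cannot give a two-sided p below 0.33, so none was run. Depth, between 22252686 and 24979081 counts on genes, gave the members a counting error between 0.99% (BIRC3) and 17.6% (CXCL8) per library.

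Alternatives were RLE, upper-quartile and total-count scaling, no low-count filter or one at a mean of 50 counts, limma-voom (limma 3.58.1), DESeq2 1.42.0, the replicate number as a block, no mitochondrial genes, removal of a length or length and GC trend (robust spline with 4 degrees of freedom per library, MASS 7.3.60.0.1, fitted above 5 CPM), and leaving out each library. All 10 members are named. Of each other list, genes past the threshold, and otherwise up to 4 with the smallest p, are named. CHUK, IKBKB, IKBKG, BIRC2 and CFLAR and the untested ligand and target genes were added after their values were seen. Of the 5 genes most like NFKBIA, 1 is not reported here. The members and lists were chosen with earlier results of these data known.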

Additional observations from a re-analysis of the deposited data

How the results depend on the processing

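Over all genes 407 passed in the reported fit, against 121 by DESeq2 (of 8436 genes it gave an adjusted p), 228 with the length trend removed (122 higher and 106 lower), 262 with length and GC trends removed (144 higher and 118 lower), 0 with no low-count filter (2297 genes had an unadjusted p under 0.05 in edgeR, and the lowest adjusted p was 0.544) and between 0 and 200 with 1 library left out. The 0 came from leaving out PBS replicate 1 or 2, where 1562 and 1672 genes had an unadjusted p under 0.05 in edgeR. Of the 10 members 2 passed, against 4 with total counts (3.02% of all genes passed) and 0 with no low-count filter (2 at an unadjusted p under 0.05 in edgeR). With a mean of at least 50 counts 4 passed, beside 4.8% of the 12542 genes tested there, and REL and CXCL8 were filtered out. Under total counts and under this filter the 4 were NFKBIA, NFKB2, TRAF1 and BIRC3. Which members passed also changed with the library left out. Of the other pathway genes 3 passed, against 0 with no low-count filter and between 0 and 1 with 1 library left out. The cause of these shifts was not tested.

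With the replicate number as a block 759 genes passed, 4.81% of those tested, and 4 members did: NFKBIA, NFKB2, TRAF1 and BIRC3. Same-numbered libraries share only a number, and their deviations from the group means had a correlation of 0.035 over 11107 genes.

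NFKBIA passed in 11 of 15 alternatives (log2 -0.32 to -0.18), NFKB2 in 10 (-0.18 to -0.11), TRAF1 in 8 (-0.27 to -0.068) and BIRC3 in 4 (0.038 to 0.22). None of the 5 named genes that passed in the reported fit (NFKBIA, NFKB2, IL1R1, LIF and PLAU) changed sign under any of these alternatives. For each of these 5 the groups did not overlap in CPM, so leaving out 1 library could hardly turn the sign. Among all 34 named genes the sign turned in 14 of 508 alternatives. The sign turned with the length trend removed, or length and GC trends removed, for TRAF3 (-0.018 and -0.002), TNFRSF12A (0.002 and 0.032) and TNFRSF1A (0.006 and 0.010). Leaving out 1 library gave log2 fold changes from -0.10 to 0.003 for NFKB1, -0.13 to 0.009 for RELA, -0.40 to 0.14 for REL, -0.087 to 0.55 for CXCL8, -0.22 to 0.025 for BCL3, -0.52 to 0.14 for NFKBIZ, -0.008 to 0.081 for TRAF2 and -0.065 to 0.035 for TNFRSF1A. Depth limits CXCL8 and REL most, with at most 45 and 58 counts.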
